A study of Mus musculus with 8 samples.

Results

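Interleukins are the secreted signals, and interleukin receptors the surface chains, through which immune and epithelial cells instruct each other. In Langerhans cells, the dendritic cells that reside in the epidermis, this family sets when a cell responds to skin damage and what it tells T cells. The members described here are the protein-coding genes of the count table whose symbol starts with Il and a digit, which gave 71 of 25247 genes, matched by Ensembl identifier. Bulk RNA sequencing was done on Langerhans cells sorted from ear epidermis of C57BL/6 mice, either wild type (WT) or EZH2 -/- (KO). Ezh2 is the enzyme that places the repressive H3K27 methyl mark on histones. The sort took live CD45+ cells with MHC class II, CD24 and EpCAM on their surface and left out cells with Ly6G or CD103. The labels used here give no Ezh2 allele, no Cre driver, no age and no treatment, and do not say whether libraries came from separate or pooled animals, so that a p-value here speaks only for variation among libraries, part of which may be technical.

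The 8 libraries cannot all be given a genotype. Each sample title carries a library code and each description carries a code, and they differ for 4 libraries. RMN030 and RMN031 are WT, and RMN038 and RMN039 are KO, by both labels. RMN032 and RMN033 are KO by title and WT by description, and RMN036 and RMN037 are WT by title and KO by description. Read by description, WT is the whole of the lower code range (RMN030 to RMN033) and KO the whole of the higher range (RMN036 to RMN039), so genotype and code range cannot be told apart. The same holds for the 4 undisputed libraries. Read by title, each genotype has 2 libraries in each code range. Comparisons below are KO minus WT, with the reading named. Library totals ran from 11051402 to 18966195 counts. Ezh2 itself was between 10.5 and 22.4 CPM (counts scaled to the column total) over all libraries. It was 15.65 and 22.4 CPM in the undisputed WT libraries and 12.7 and 10.5 CPM in the undisputed KO libraries. In the disputed libraries it was 15.2 CPM in RMN032, 14.9 in RMN033, 19.0 in RMN036 and 17.6 in RMN037. By title the genotypes did not overlap in Ezh2, though RMN030 at 15.65 CPM and RMN032 at 15.2 CPM were close. By description they overlapped. Of 14943 genes with at least 1 CPM in at least 2 libraries, 2.9% did not overlap by title and 8.7% by description. Which reading is right was not tested.

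The Langerhans identity of the cells was plain in every library. Cd207, which encodes langerin, was between 9706 and 11960 CPM, and all 11 Langerhans markers had counts in every library. Markers of other cells were present too. The 12 keratinocyte markers summed to between 15800 and 20480 CPM. The 18 T cell markers in the table summed to 383 CPM in RMN030 and 376 CPM in RMN031 but to between 45.8 and 60.8 CPM in the other libraries. Mitochondrial transcripts took 1.02 to 1.87% of counts in RMN030 to RMN033 and 3.76 to 4.03% in RMN036 to RMN039. In bulk samples, fewer cells of a type and less RNA per cell cannot be told apart.

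Of the 71 members, 51 were expressed, meaning at least 1 CPM in at least 2 libraries, and 46 had a count in every library. Receptor chains were expressed more completely than ligands, with 28 of 34 chains and 16 of 28 ligands. All 3 decoy receptors, both ligand antagonists and the IL-18 binding protein gene Il18bp were expressed. By level, 9 members averaged 100 CPM or more, 20 were between 10 and 100 CPM and 22 were expressed below 10 CPM. Together the members held 1.0 to 1.24% of each library's counts. The 20 members that were not expressed included Il4, which drives type 2 helper T cells, and Il12a, the subunit that pairs with Il12b to form IL-12, at means of 0.0377 and 0.0641 CPM. Il17f, an IL-17 ligand, averaged 0.143 CPM, and Il2ra, the high-affinity IL-2 receptor chain, 0.184 CPM.

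**Figure D1:**
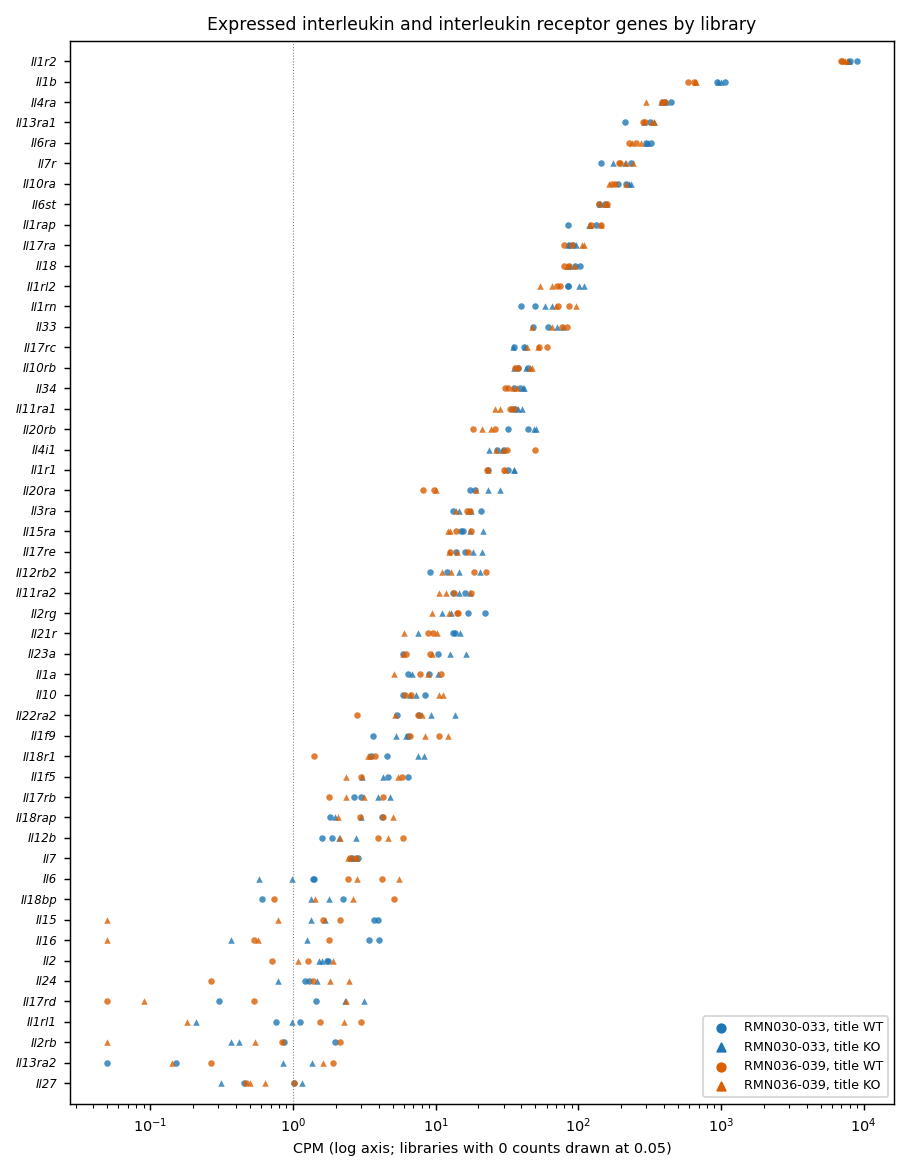
CPM of the 51 expressed members in each of the 8 libraries, on a log axis, with colour for the code range and symbol shape for the title genotype. Il1r2 stands alone near 7713 CPM on average, Il1b follows at 817 CPM, and the dotted line marks 1 CPM.

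The IL-1 system dominated the family, and its most abundant member was a decoy. Il1r2 encodes the IL-1 receptor that binds IL-1 and does not signal. Its levels were 8979, 7972, 7720 and 7913 CPM in RMN030 to RMN033 and 7093, 6969, 7625 and 7433 CPM in RMN036 to RMN039. It was one of the steadiest members, with the highest library 1.29 times the lowest, and it alone held 67.8 to 72.4% of the members' counts. Per exon length, as TPM (counts per exon length, scaled to the library), it averaged 10940 and ranked 8 of 16384 protein-coding genes. Il1r1, the chain that does signal, averaged 12.4 TPM. The per-length level of Il1r2 was 729 to 1277 times that of Il1r1 over the libraries.

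Both genes lie in a cluster of 6 receptor genes on chromosome 1 (GRCm38, 40074079 to 40551705), in the order Il1r2, Il1r1, Il1rl2, Il1rl1, Il18r1 and Il18rap. Mean levels in that stretch of 478 kb ran from 0.489 TPM for Il1rl1, the IL-33 receptor chain, to 10940 TPM for Il1r2. Il1rl2, the IL-36 receptor, averaged 32.2 TPM, and the IL-18 receptor chains Il18r1 and Il18rap averaged 2.55 and 1.26 TPM. Il1rap, the accessory chain shared by the IL-1, IL-33 and IL-36 receptors, averaged 29.4 TPM.

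Among ligands, Il1b was the most abundant. It encodes IL-1 beta, an inflammatory cytokine that Langerhans cells produce and that is known to help start their departure from the epidermis. It averaged 1166 TPM (rank 74 of the protein-coding genes) and made up 67.8 to 78.7% of the ligands' summed TPM. Il18, a second ligand activated by caspase-1, averaged 234 TPM, so that Il1b was 3.79 to 6.19 times Il18 per length. Il1a, which encodes IL-1 alpha, averaged 11.2 TPM, and Il1b was 55.2 to 172 times as high. Il33, an alarmin of barrier epithelium, averaged 62.3 TPM. Il34, the keratinocyte ligand of Csf1r on which Langerhans cells depend, averaged 50.5 TPM. The libraries also held keratinocyte transcripts, and which cells the Il33 and Il34 counts came from was not tested. Il10, an anti-inflammatory cytokine, averaged 16.2 TPM.

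Receptor chains other than the IL-1 decoy were at 219 TPM on average or below. Il13ra1 and Il4ra, which together form a receptor for IL-4 and IL-13, averaged 219 and 176 TPM. Il10ra, the ligand-binding IL-10 receptor chain, averaged 156 TPM, and Il7r, the receptor chain for IL-7 and TSLP, 117 TPM. Il6ra, the IL-6 binding chain, averaged 87.6 TPM and its signalling partner Il6st 36.7 TPM. Il17rc, an IL-17 receptor chain, averaged 45.8 TPM and its partner Il17ra 29.0 TPM. Levels were even across libraries for many members: for 23 of the 51 expressed members the highest library was under 2 times the lowest, and for 11 it was at least 4 times the lowest or the lowest was at 0.

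The clearest difference in the family followed the code range. Il1b was 1066, 946, 1008 and 961 CPM in RMN030 to RMN033 and 643, 585, 660 and 666 CPM in RMN036 to RMN039. The code ranges did not overlap. The WT and KO titles overlapped in the lower range, and in the higher range the KO titles lay just above the WT titles. By description codes Il1b was 995 ± 53.9 CPM in WT and 639 ± 37.1 CPM in KO (SD, n = 4 each). The log2 fold change was -0.60 (SE 0.08, edgeR quasi-likelihood test, adjusted p = 0.00225). By title codes it was 810 ± 233 CPM in WT and 824 ± 187 CPM in KO (SD, n = 4 each), and the log2 difference was 0.01 (SE 0.19, edgeR adjusted p = 0.998). In the undisputed libraries the log2 fold change was -0.56 (SE 0.13, edgeR adjusted p = 0.0956). The call by description codes held with each library left out and without both RMN030 and RMN031, where the log2 fold change was -0.57 (edgeR adjusted p = 0.00708).

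Il1rn, which encodes the secreted antagonist that keeps IL-1 off its receptor, went the other way. Its levels were 39.5, 49.7, 65.7 and 58.3 CPM in RMN030 to RMN033 and 72.1, 86.4, 96.2 and 70.04 CPM in RMN036 to RMN039. The ranges did not overlap, although RMN032 and RMN039 were only a few CPM apart. By description codes the log2 fold change was 0.65 (SE 0.15, edgeR adjusted p = 0.0455). In the undisputed libraries it was 0.94 (SE 0.21, edgeR adjusted p = 0.0833), and by title codes 0.23 (SE 0.24, edgeR adjusted p = 0.998). Leaving out any 1 library other than RMN032 ended the call by description codes, with adjusted p up to 0.138, while the log2 fold change stayed between 0.55 and 0.76. Without both RMN030 and RMN031 the log2 fold change was 0.45 (edgeR adjusted p = 0.281). The per-length ratio of Il1rn to Il1b was 0.0128 in RMN030 and at most 0.0509 in any library.

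Il20rb, a chain of the receptors for IL-19, IL-20 and IL-24, fell with the higher code range. It was 44.5, 32.3, 50.5 and 49.4 CPM in RMN030 to RMN033 and 18.4, 26.3, 21.1 and 24.6 CPM in RMN036 to RMN039. By description codes the log2 fold change was -0.92 (SE 0.17, edgeR adjusted p = 0.0158), and by title codes 0.25 (SE 0.31, edgeR adjusted p = 0.998). In the undisputed libraries it was -0.70 (SE 0.26, edgeR adjusted p = 0.319). The call by description codes ended without RMN032, RMN033, RMN036 or RMN038, with adjusted p from 0.0529 to 0.063, and with the replicate number as a block, with adjusted p = 0.0524. Its partner Il20ra ranged from 17.5 to 28.3 CPM in the lower code range and from 8.15 to 19.4 CPM in the higher one, with a log2 fold change of -0.86 by description codes (SE 0.27, edgeR adjusted p = 0.149). By title codes the sign was opposite, at 0.57 (SE 0.33, edgeR adjusted p = 0.998), and in the undisputed libraries the value was -0.27 (SE 0.34, edgeR adjusted p = 0.856).

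The 250 bases before the RefSeq transcription start (GRCm38.p6) are shown for these 3 called genes and for Il1r2, the most abundant member, read 5′ to 3′ on the gene's strand. Capitals mark a TATA box (TATAAA) or an AP-1 motif (TGANTCA).
Il1b, chr2:129371140-129371389, minus strand: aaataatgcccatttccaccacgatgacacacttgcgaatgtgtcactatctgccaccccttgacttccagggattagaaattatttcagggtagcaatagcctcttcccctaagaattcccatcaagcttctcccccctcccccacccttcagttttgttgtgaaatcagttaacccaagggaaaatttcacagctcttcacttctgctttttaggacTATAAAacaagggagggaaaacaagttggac
Il1rn, chr2:24336610-24336859, plus strand, the most upstream of 3 starts: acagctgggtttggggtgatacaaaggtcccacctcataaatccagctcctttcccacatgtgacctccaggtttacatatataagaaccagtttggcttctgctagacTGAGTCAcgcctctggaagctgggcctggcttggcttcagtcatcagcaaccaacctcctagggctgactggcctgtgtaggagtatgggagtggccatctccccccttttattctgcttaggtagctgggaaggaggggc
Il20rb, chr9:100486474-100486723, minus strand: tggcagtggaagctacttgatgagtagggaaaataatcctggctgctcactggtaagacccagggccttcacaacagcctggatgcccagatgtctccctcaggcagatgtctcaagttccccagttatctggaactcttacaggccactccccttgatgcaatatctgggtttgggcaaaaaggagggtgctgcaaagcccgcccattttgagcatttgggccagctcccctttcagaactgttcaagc
Il1r2, chr1:40085843-40086092, plus strand: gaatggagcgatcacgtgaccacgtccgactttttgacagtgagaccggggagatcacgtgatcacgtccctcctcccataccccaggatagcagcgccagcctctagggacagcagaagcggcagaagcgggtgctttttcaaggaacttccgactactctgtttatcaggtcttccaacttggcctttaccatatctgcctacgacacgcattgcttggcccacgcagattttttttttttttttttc
The windows searched ran from 250 bases before to 50 after each start, on both strands. The Il1b window held a TATA box at -31 to -26. The Il1rn window shown held an AP-1 motif at -141 to -135, which reads as a match on both strands. The windows at the other Il1rn starts, further downstream, held no AP-1 motif. The last of them held the TATA letters at 15 to 20 after its start, on the opposite strand. The counts per gene do not tell these starts apart. Of 32851 RefSeq windows, 13.6% held the TATA letters and 7.81% the AP-1 letters. The letters of the CRE motif (TGACGTCA, in 1.79% of windows) and the NF-kB motif (in 4.51%) were in none of the 4 windows shown. The only Il1r2 window begins at 40085843, inside the gene as annotated here, which begins at 40074079. The bases before that upstream end were not searched. A window was found for 57 of the 71 members, and such matches are a description of letters only.

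The calls of each fit can be read against the share of all tested genes called. In the description reading 3 of 50 tested members passed an adjusted p of 0.05, against 2.02% of the 14630 genes tested, or 1.43% higher and 0.595% lower in KO. With the title genotype in the model, the higher minus lower code range gave the same 3 of 53 members, against 1.86% of genes, or 1.2% higher and 0.663% lower. In the undisputed libraries 0 of 49 members passed, against 0.794% of genes called. An unadjusted p under 0.05 was found there for 10 members and for 1657 of the 14727 genes tested. DESeq2 called 2 members in these libraries (2.07% of genes) and limma voom 1 (1% of genes). In the title reading 0 of 50 passed, against 0% of genes called. An unadjusted p under 0.05 was found for 3 members and for 672 of 14630 genes. With the code range as a covariate 0 of 53 passed, against 0.0434% of genes. There 5 members had an unadjusted p under 0.05, as did 1023 of 16146 genes. DESeq2 and limma voom also called 0 members in both title fits.

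**Figure D2:**
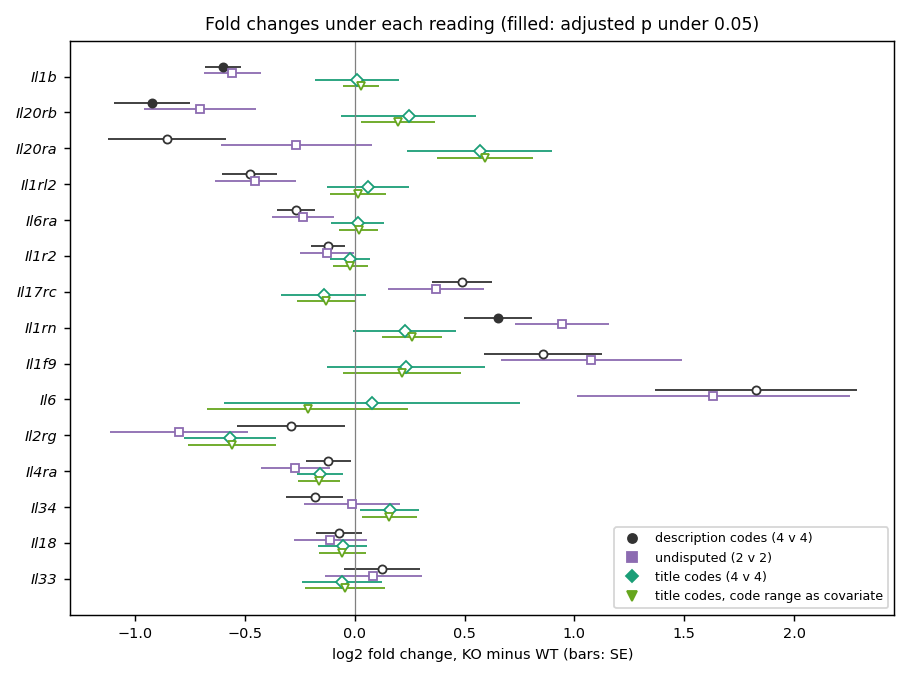
Log2 fold changes (KO minus WT, bars are SE) of 15 members under 4 fits, filled where the edgeR adjusted p is under 0.05. Il1b, Il20rb and Il1rn are filled by description codes alone, and by title codes their values lie between 0.01 and 0.25.

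Without overlap between the 4 and 4 libraries of the description reading stood 9 of the 51 expressed members, against 8.7% of 14943 expressed genes. Lower in KO were Il1b, Il1r2, Il1rl2, Il20rb and Il6ra, where 4.99% of genes were, and higher were Il17rc, Il1f9, Il1rn and Il6, where 3.71% were. Il6, an inflammatory cytokine, was at 1.37, 1.40, 0.98 and 0.58 CPM in RMN030 to RMN033 and at 2.42, 4.20, 5.54 and 2.81 CPM in RMN036 to RMN039. Its log2 fold change was 1.83 (SE 0.46, edgeR adjusted p = 0.0609), short of the threshold. For Il1rl2 it was -0.48 (SE 0.12, edgeR adjusted p = 0.0727), for Il17rc 0.49 (SE 0.14, 0.0989), for Il6ra -0.27 (SE 0.09, 0.178) and for Il1r2 -0.12 (SE 0.08, 0.594). Il1f9, which encodes IL-36 gamma, was at 5.38 ± 1.25 CPM in the lower range and 9.46 ± 2.47 CPM in the higher range (SD, n = 4 each). That is a log2 difference of 0.86 (edgeR adjusted p = 0.149). By title codes these 6 log2 values were 0.08 for Il6, 0.06 for Il1rl2, -0.14 for Il17rc, 0.01 for Il6ra, -0.02 for Il1r2 and 0.23 for Il1f9, each with an edgeR adjusted p of 0.998. The undisputed libraries gave 1.63, -0.45, 0.37, -0.24, -0.13 and 1.08 in the same order, with edgeR adjusted p from 0.349 to 0.789.

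**Figure D3:**
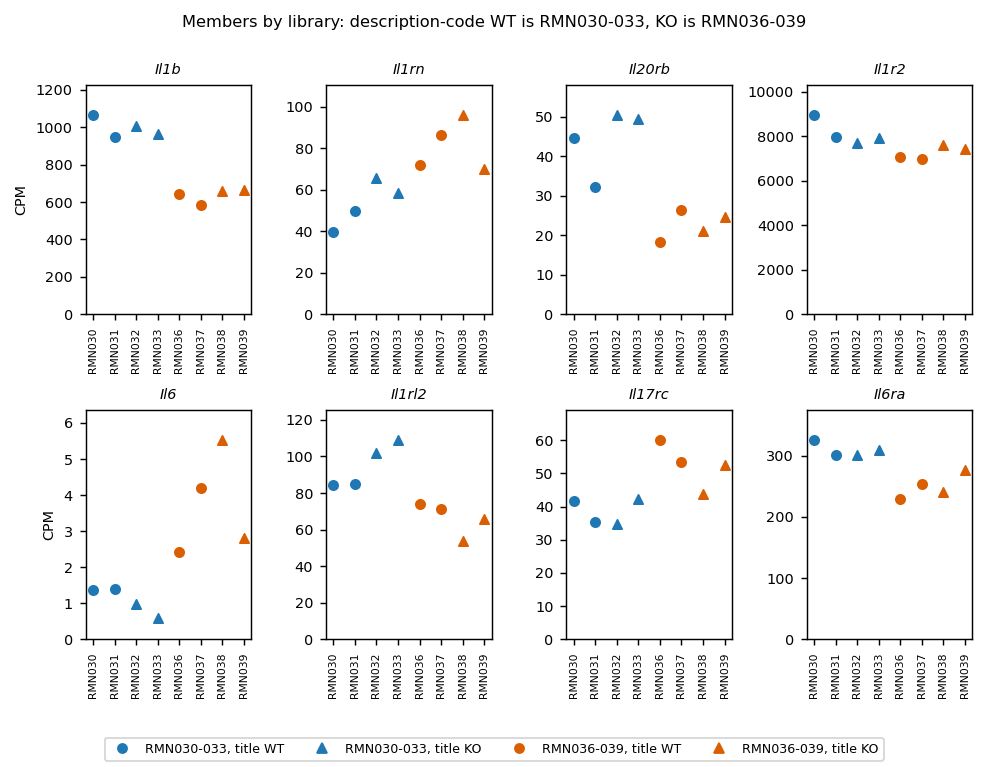
CPM by library for 8 of the 9 members whose libraries do not overlap between RMN030 to RMN033 (WT by description) and RMN036 to RMN039 (KO by description), each axis from 0. The difference in mean, KO minus WT by description, is -356.6 CPM for Il1b and -866.3 CPM for Il1r2. For Il1r2 that is small beside its level of about 7713 CPM.

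Other transcripts moved with the code range beside these members, in both directions. The 7 fibroblast markers summed to 37.0 to 62.9 CPM in the lower range and 120 to 199 CPM in the higher. The 5 red blood cell markers summed to 122 to 226 CPM and 580 to 1355 CPM, and the 8 mast cell markers to 37.7 to 45.8 CPM and 58.0 to 75.9 CPM. Lower in the higher range, without overlap, were Fos (1783 to 1907 against 1272 to 1350 CPM) and Nr4a1 (1529 to 1891 against 887 to 1011 CPM), immediate early genes known to respond to tissue dissociation. Of the keratinocyte markers, Krt15 was lower as well (1337 to 1656 against 1060 to 1120 CPM). So was Trp63 (271 to 442 against 165 to 249.4 CPM). Krt1 (at most 59.47 against at least 81.62 CPM) and Krt79 (at most 94.92 against at least 115.1 CPM) were higher, without overlap. The sum of the 12 markers overlapped. Fos, Nr4a1 and the keratinocyte genes named here were chosen after their values were seen. With mitochondrial and haemoglobin genes taken out of the scaling total, the difference in mean Il1b went from -356.6 to -345.7 CPM. That step changes the scaling alone. The part of all these transcripts in the differences of Il1b and the other members was not tested.

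Read by title, 2 of the 51 expressed members stood without overlap between the groups, Il2rg and Il2rb, against 2.9% of genes. Both are chains of the common gamma chain family, whose receptors serve IL-2, IL-7 and IL-15. As grouped here that family also holds the IL-13 receptor genes Il13ra1 and Il13ra2, and the other 9 of its 11 expressed members overlapped. Il2rg encodes the common gamma chain itself. It was 22.3, 16.9, 14.1 and 14.3 CPM in the WT titles (RMN030, RMN031, RMN036, RMN037) and 11.2, 12.8, 9.38 and 12.5 CPM in the KO titles (RMN032, RMN033, RMN038, RMN039). Its log2 fold change was -0.57 (SE 0.21, edgeR adjusted p = 0.998) by title, and -0.56 (SE 0.20, edgeR adjusted p = 0.663) with the code range as covariate. The exact permutation test over libraries gave p = 0.0286, two-sided, the smallest that 4 against 4 allows, for a gene picked for its lack of overlap. Il2rb, the IL-2 and IL-15 receptor beta chain, was 1.46 ± 0.707 CPM in WT and 0.333 ± 0.234 CPM in KO (SD, n = 4 each), from 108 counts over all libraries.

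In both code ranges, 5 of the 51 expressed members were split by title in the same direction (6.85% of genes were): Il15, Il2rb and Il2rg lower in KO, and Il20ra and Il34 higher. Il15, a survival cytokine for lymphocytes, was 3.97 and 3.72 CPM in RMN030 and RMN031 and 1.35 and 1.69 CPM in RMN032 and RMN033. In the higher range it was 2.15 and 1.62 CPM in the WT titles and 0.781 and 0 CPM in the KO titles. Il16, a chemoattractant of CD4+ cells, was 3.44 and 3.99 CPM in RMN030 and RMN031 and at most 1.80 CPM elsewhere. RMN030 and RMN031 were also the libraries with 383 and 376 CPM of T cell markers. Of those 18 markers 7 had counts in every library and 0 were at 0 in all, and Cd3e was 7.33 and 6.46 CPM in these 2 libraries and between 0 and 1.09 CPM in the rest. Within the higher code range the T cell sum was 54.8 and 60.8 CPM in WT titles and 45.8 and 54.4 CPM in KO titles. Most of that was Cd4, at 33.8 and 40.1 CPM in WT titles and 33.5 and 37.7 CPM in KO titles, and Thy1. Cd8b1 and Dntt were at 0 CPM there, so the sum says little about T cells in that range. The part of T cell transcripts in the Il2rg, Il15 and Il16 values was not tested. Exons of Il2rg share 728 bases with the gene model Gm20489 on the same strand, and those of Il16 share 1202 bases with Stard5 on the opposite strand, so their counts are uncertain. Il15 and Il16 rest on 245 and 195 counts over all libraries. By title codes their log2 fold changes were -1.57 (SE 0.73) and -2.10 (SE 0.84), each with an edgeR adjusted p of 0.998. With the code range as covariate the edgeR adjusted p was 0.707 and 0.702. The undisputed libraries gave -3.16 and -3.54 (SE 1.02 and 1.03, edgeR adjusted p = 0.249 and 0.197). Description codes gave -1.18 and -1.57 (SE 0.76 and 0.88, edgeR adjusted p = 0.585 and 0.509).

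**Figure D4:**
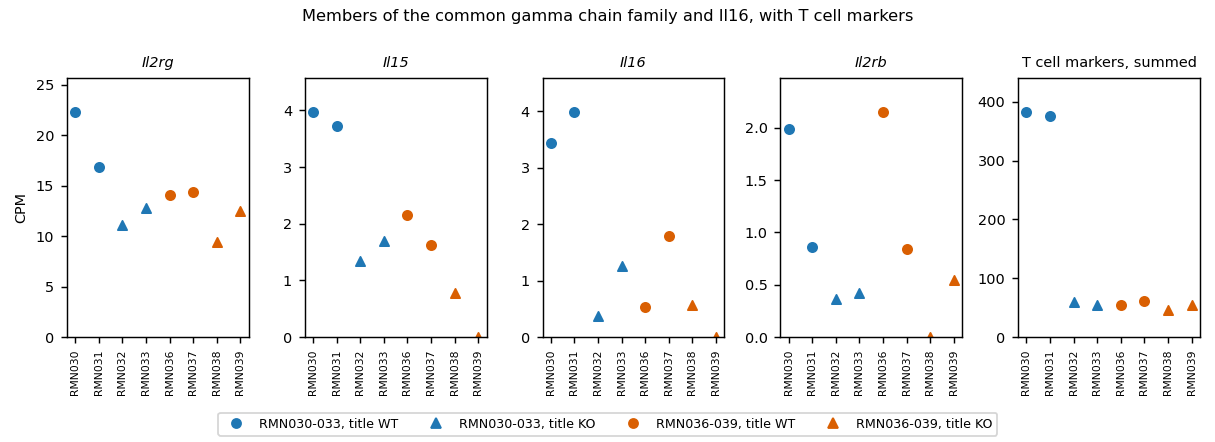
CPM by library for Il2rg, Il15, Il16 and Il2rb beside the summed T cell markers, each axis from 0. RMN030 and RMN031 are highest for Il2rg, Il15, Il16 and the T cell markers, while for Il2rb RMN036 is highest.

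For 6 of the 51 expressed members the title genotypes separated in opposite directions in the 2 code ranges, where 7.53% of genes did: Il11ra1, Il12rb2, Il15ra, Il1r2, Il1rl2 and Il33. Il33 was 48.4 and 61.3 CPM in WT titles against 77.6 and 71.1 CPM in KO titles in the lower range. In the higher range it was 83.3 and 77.4 CPM in WT titles against 47.6 and 65.2 CPM in KO titles. Il12rb2, an IL-12 receptor chain, was 9.16 and 12.1 against 14.6 and 20.4 CPM, and then 18.6 and 22.7 against 11.1 and 12.9 CPM. Il1rl2 was 84.3 and 84.9 against 102 and 109 CPM, and then 74.2 and 71.1 against 54.0 and 65.9 CPM. The test of the difference between ranges, the interaction term in edgeR, called 0 of 53 members, against 0.0186% of genes. Its unadjusted p was under 0.05 for 4 members and for 1281 of 16146 genes. The adjusted p was 0.378 for Il12rb2 (log2 difference -1.43, SE 0.39) and 0.412 for Il33 (-0.88, SE 0.26). Within the lower range 0 members passed, against 0.186% of genes called. An unadjusted p under 0.05 was found for 3 members and 1083 of 16146 genes. Within the higher range 0 passed, against 0% of genes. There an unadjusted p under 0.05 was found for 5 members and 1264 of 16146 genes. DESeq2 and limma voom called 0 members in these 3 fits. The keratinocyte marker sum took the same order: 18460 and 15800 CPM in WT titles against 19870 and 20480 CPM in KO titles, then 18100 and 18680 against 15990 and 16690 CPM. All 12 keratinocyte markers had counts in every library, and their part in the Il33 and Il1rl2 values was not tested. Il12rb2 shares 1519 exonic bases with Serbp1 on the opposite strand, and the strand setting of the counts is not given in the sources used here.

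**Figure D5:**
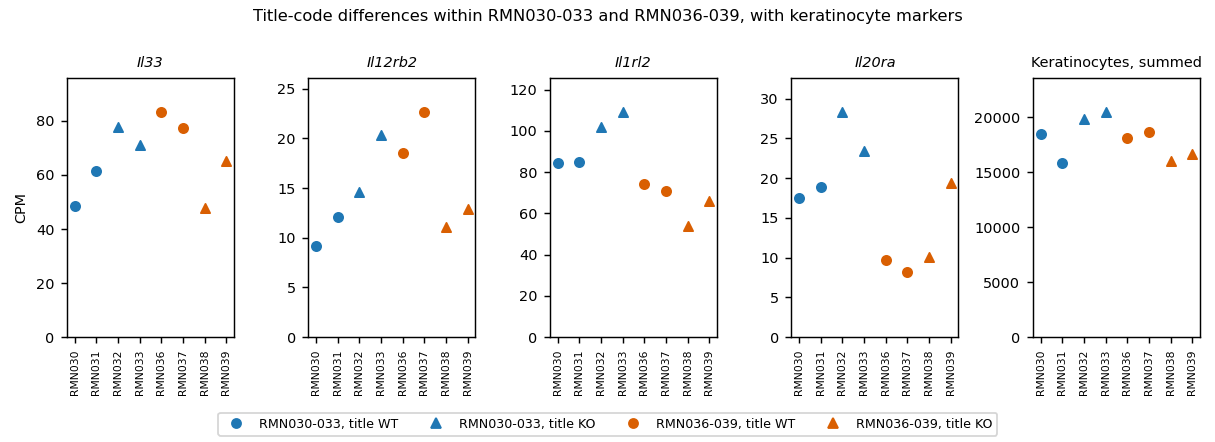
CPM by library for Il33, Il12rb2, Il1rl2 and Il20ra beside the summed keratinocyte markers, each axis from 0. KO titles lie above WT titles in RMN030 to RMN033 for all of them, and below in RMN036 to RMN039 for all but Il20ra.

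Beyond the members, 7 lists of partner and pathway genes were followed in 5 fits (undisputed, title, description, title with code range, and code range with title). By description codes 2.02% of all genes tested were called, 1.43% higher and 0.595% lower. In the other fits the share was at most 1.86%. With so few genes in a list, 0 or 1 call says little about a pathway. In the IL-1 and Toll signalling list 1 of 14 tested genes rose by description codes: Peli1, an E3 ubiquitin ligase of that pathway, with a log2 fold change of 0.52 (SE 0.12, edgeR adjusted p = 0.0413). Of the partner chains and ligands, 1 of 9 rose: Tslp, an epithelial cytokine that signals through Il7r, at 8.17 to 14.2 CPM in the lower range and 17.8 to 28.7 CPM in the higher, with a log2 fold change of 1.14 (SE 0.21, edgeR adjusted p = 0.0117). Of 9 genes of cytokine mRNA decay, 1 fell: Zfp36, which encodes tristetraprolin, at 2218 to 2473 CPM against 1587 to 1715 CPM, with a log2 fold change of -0.44 (SE 0.07, edgeR adjusted p = 0.00484). Tslp and Zfp36 also passed for the code range with title genotype in the model (edgeR adjusted p = 0.0216 and 0.0061). By title codes the log2 fold changes were 0.14 for Peli1, -0.18 for Tslp and -0.0029 for Zfp36, each with an edgeR adjusted p of 0.998. The undisputed libraries gave 0.61, 1.10 and -0.42, with edgeR adjusted p of 0.0858, 0.188 and 0.191. The lists of inflammasome processing (12 genes), JAK-STAT (12 tested by description codes), its feedback (9) and IL-17 signalling (6) held 0 called genes in the 5 fits. Their median log2 fold changes by description codes were 0.032, -0.13, -0.0063 and -0.12, beside -0.0085 over all genes tested.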

How the data were processed

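The deposited values are raw counts per gene for 25247 Ensembl genes in 8 libraries, made with STAR 2.5.2b and featureCounts 1.5.0 on GRCm38 (mm10), per the submitters' processing notes. The annotation release, strand setting and treatment of read pairs are not given in the sources used here. Of the counts from 1 to 20, 60.1% were even, so intervals from counting error may be too narrow. Symbols were matched for 25080 identifiers, and 167 unmatched ones stayed out of TPM, which used exon-union lengths of a GENCODE annotation of GRCm38. All counts were fitted under R 4.3.3 with edgeR 4.0.16 (low counts removed by filterByExpr, TMM scaling, robust quasi-likelihood F-tests, two-sided, Benjamini-Hochberg over all genes tested, threshold 0.05), with DESeq2 1.42.0 and limma 3.58.1 voom as alternatives and exact permutation tests over libraries for single genes. These fits were also tested on simulated data with known changes. Promoters came from RefSeq. Members, lists and tests were chosen with earlier results of these data known. The members named were those called in any fit, the 12 highest per length, the 5 smallest p in each fit, those split by title in both code ranges and those varying at least 4-fold between libraries; other members named were chosen after their values were seen.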

Additional observations from a re-analysis of the deposited data

Results flagged for a closer look

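For 31 named members, 124 groups of 4 libraries were examined for a library far from the other 3 (its gap to the nearest one, over the range, past Dixon's critical value), and 3 were found, where chance gives about 6.2. Il13ra2, the IL-13 decoy receptor, was 1.92 CPM in RMN037, far above the other WT titles. Il20ra was 19.4 CPM in RMN039, far above the other libraries of the higher code range. Il24, a ligand of the Il20rb receptors, was 0.269 CPM in RMN036, far below the other WT titles.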

How the results depend on the processing

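The number of called members kept to 0 in both title fits, within each code range and for the interaction under every alternative run. In the undisputed libraries it was 0 (0.794% of genes called). It became 4 with no filter (1.9%), 2 with DESeq2 (2.07%) and 1 with limma voom (1%). In a fit of all 8 libraries as 4 groups it was 1 (0.65%). With a library left out, a lone library is assumed to vary like the other group, so no count is given. By description codes the number was 3 (2.02% of genes called), 6 with DESeq2 (4.51%) and 4 with limma voom (2.57%). With a library left out it was 1 to 3 (0.933 to 1.44%). For the code range with title genotype the number was 3 (1.86% of genes called). It was 6 with no filter (3.38%), 7 with DESeq2 (4.48%) and 4 with limma voom (2.5%). With a library left out it was 1 to 3 (0.862 to 1.32%). In that last fit the Il1rn call ended without any 1 library other than RMN039 (edgeR adjusted p 0.0505 to 0.116) and the Il20rb call without any 1 other than RMN031 or RMN037 (0.0511 to 0.0725). Without both RMN030 and RMN031 it gave 0.0186 for Il1b, 0.0619 for Il20rb and 0.288 for Il1rn. Single genes were followed only where called or among the 5 smallest p of a fit, a choice that favours a stable sign. They kept their direction in every alternative: 485 results stayed on their side of the threshold, 23 newly passed it and 28 no longer did. The 485 and the 23 include fits that leave a lone library in a group, and members that were not called to begin with. All 28 were calls of Il1rn or Il20rb, by description codes or for the code range with title genotype. The Il1b call in those fits held in every alternative. Same-numbered libraries deviated together little over all genes (correlations 0.043 to 0.075 by title and -0.0053 to 0.028 by description). By title such pairs even share a code range and still gave low values, so the measure cannot exclude a pairing by number. With the replicate block, 0 members were called by title (0% of genes) and 2 by description (1.19% of genes). Low counts limit Il13ra2, Il2rb, Il24, Il16, Il15 and Il6, with 98, 108, 161, 195, 245 and 286 counts over all libraries, among others.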
